A study of Mus musculus with 4 samples.

Results

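The genes described here are the semaphorins, the plexins and the 2 neuropilins of the mouse, as measured in 4 bones. They were taken as the probes that are not controls whose gene name on the array is a semaphorin of classes 3 to 7, a plexin of the A, B, C or D type, Nrp1 or Nrp2. The rule found 59 probes of 31 genes, out of 41174 probes and 27598 genes with a value: 20 semaphorins, 9 plexins and 2 neuropilins. It used names alone and no measured value.

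Semaphorins are secreted or membrane-bound signals, and plexins are their main receptors, which act on the cytoskeleton through small GTPases. Most class 3 semaphorins are secreted and need a neuropilin as a co-receptor beside an A or D type plexin, while the membrane-bound class 4 semaphorins bind B or D type plexins directly. The family is known best for the guidance of growing axons and of neural crest cells and vessels, and in bone for signals between osteoblasts, osteoclasts and nerve fibres, with Sema3a and Sema4d as the best studied examples in mice.

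The samples were whole-bone RNA of the maxilla, the mandible, the ilium and the femur, each from male C57BL/6 mice aged 35 days, with 1 Agilent one-colour array per bone. In the study the same kinds of bone served as graft material for skull defects, and the arrays profiled the bones before grafting. The comparison set the jaw bones, maxilla and mandible, against the trunk and limb bones, ilium and femur. The labels give no genetic change and no treatment for any bone, and they leave unsaid how many mice stand behind an array and whether marrow and teeth were taken out. A p-value here therefore sets the difference between the classes against the spread of the 2 bones within each class, and says nothing of the spread between mice.

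Levels below are on the log2 scale with the array's own 75th percentile as 0, called the relative log2 signal, and a difference is jaw minus trunk and limb on that scale with its standard error (SE, 2 bones per class). Signals of different probes are not compared with each other. Between 72.8% and 75.5% of the spots were well above background on an array, and 0 were saturated. All 4 arrays shared 1 slide, where each bone had a place of its own, so bone and place cannot be told apart. The 7 osteoblast and osteocyte markers were well above background in every bone. Tooth markers such as Ambn and Amelx, which encode enamel proteins, summed to 88.1 and 261 times the 75th percentile signal in maxilla and mandible, against 0.273 and 0.06 in ilium and femur. By the test described below 4 of the 5 were called higher, beside 4.51% of all genes tested. The enamel genes Enam and Mmp20 were not well above background in ilium and femur. They met the test's filter of at least 2 arrays well above background only through the jaw bones. Epithelial keratins and adhesion genes summed to 68.6 and 76.9 in maxilla and mandible, against 0.332 and 0.421 in ilium and femur. Here 6 of 7 were called higher, beside the same 4.51%. Of these, Krt15 was not well above background in ilium and femur and also met the filter only through the jaw bones. Markers of red cell precursors summed to 29.8 and 44.4 in the jaw bones, against 240 and 265 in ilium and femur. All 5 were called lower, beside 7.25% of all genes tested. The part of these tissues in the results below was not tested, and in whole-bone RNA a difference in the number of cells of a type and a difference in RNA per cell cannot be told apart.

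Semaphorin and plexin genes were more often higher than lower in the jaw bones. In all, 6 genes passed the test as higher in jaw (limma, adjusted p under 0.05): the class 3 semaphorins Sema3c, Sema3d and Sema3e and the plexins Plxna1, Plxna3 and Plxnb1, with differences between 1.57 and 3.43 (2.97-fold to 10.8-fold). Sema4a alone passed as lower, by 4.4-fold. These were 6 of 31 genes (19.4%) higher, where 4.51% of the 20618 genes tested on the arrays were called higher, and 1 of 31 (3.23%) lower, where 7.25% of all genes tested were called lower. The median difference over the 31 genes was 0.73, beside -0.03 over all genes tested, and 23 of the 31 differences were positive, beside 48.7% of all genes tested. Of the 31 genes, 30 were well above background on all 4 arrays, so the filter on dim genes left out none of them.

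The probes behind the 7 calls lie, on the mm8 build of the array design, at chr5:14262437-14262496 for Sema3e, chr5:17089485-17089544 for Sema3c, chr5:12592142-12592201 for Sema3d, chr9:108976748-108976807 for Plxnb1, chrX:70597304-70597363 for Plxna3, chr6:89282175-89282234 for Plxna1 and chr3:88522070-88522128 for Sema4a. Exon and UTR annotation on that build was not used here.

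**Figure D1:**
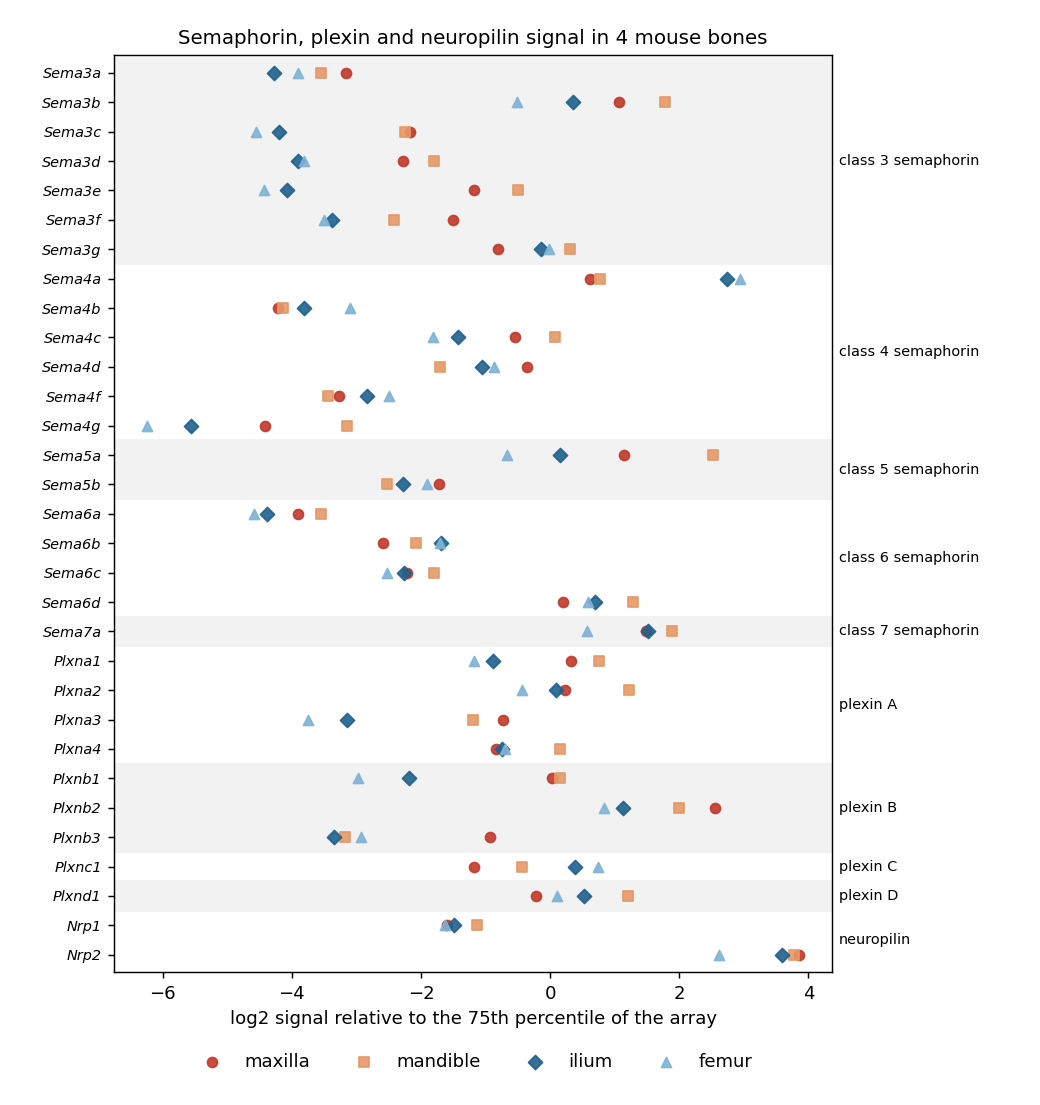
Relative log2 signal (x axis) of the brightest probe of each of the 31 genes (rows, grouped by class) in maxilla, mandible, ilium and femur, 1 point per bone. Positions are comparable along a row and not between rows. In the rows of Sema3c, Sema3d, Sema3e, Plxna1, Plxna3 and Plxnb1 both jaw bones lie to the right of both trunk and limb bones by more than 1 unit, and in the row of Sema4a they lie to the left.

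By separation alone, without a test, both jaw bones lay above both of the others for 17 genes (54.8%, where 31.9% of all genes tested did so) and below both for 5 genes (16.1%, where 36.3% did so). With a gap of at least 1 on the log2 scale (2-fold) between the classes, 7 genes were higher in jaw (22.6%, beside 9.34% of all genes tested). These were the 6 genes named above and Sema4g. Only Sema4a was lower by this rule (3.23%, beside 9.82%). The other genes below both trunk and limb bones were Plxnc1, Sema4b, Sema4f and Sema6b. The scaling of the arrays shifts these counts: centring each array on its median, or using the values of the deposited series table, moved the median of all genes to -0.28 and the share of calls that are higher to 26.8% and 27.2%, beside 38.3% with the 75th percentile. Under either of these scalings 4 of the 31 genes were called higher and 1 lower. Of the 20618 genes tested, 604 and 574 were called higher and 1647 and 1539 lower. Among the 31 genes, 5 were 2-fold higher between the classes and 20 differences were positive, and their median was 0.48. The all-gene shares of the 2-fold rule and of positive differences were not counted under these scalings. The median of the 31 genes stood 0.76 above that of all genes under all 3 scalings. This gap could not move, because these scalings change every gene's difference by about the same amount. It was 0.54 with the normexp background correction, 0.79 with quantile scaling and 0.65 without the filter on background.

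Among the ligands, the secreted class 3 semaphorins leaned towards the jaw bones. Of 7 class 3 genes, 3 passed as higher and none as lower, beside 4.51% and 7.25% of all genes tested. For 6 of them both jaw bones lay above both of the others, beside 31.9% of all genes tested. The median difference of the class was 1.5. Sema3e, which is unusual among class 3 semaphorins in binding the receptor Plxnd1 without a neuropilin, had a relative log2 signal of -1.18 in maxilla and -0.49 in mandible, against -4.08 in ilium and -4.43 in femur. The jaw bones lay at least 2.91 above the others, a difference of 3.43 ± 0.34 (10.8-fold, adjusted p = 0.0325), which only 2.79% of all genes tested exceeded. A second probe gave 4.53 ± 0.42 in the fit of each probe (adjusted p = 0.0306). The other 2 Sema3e probes were well above background on at most 1 array and were not tested.

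Sema3c, which guides neural crest cells in the outflow tract of the mouse heart, had -2.17 in maxilla and -2.24 in mandible, against -4.2 in ilium and -4.56 in femur. The jaw bones were nearly equal, and the difference was 2.17 ± 0.23 (4.52-fold, adjusted p = 0.0325). The other Sema3c probe had the same order of classes with a smaller difference of 1.15 ± 0.36, which did not pass (adjusted p = 0.114). Sema3d, a close relative of Sema3a with a role in vein patterning in mice, had -2.28 in maxilla and -1.8 in mandible, against -3.9 in ilium and -3.81 in femur, a difference of 1.81 ± 0.26 (3.51-fold, adjusted p = 0.0379). It has 1 probe on the array, and its groups did not overlap either. The call was lost with quantile scaling, median centring, the series table and no filter on background (adjusted p between 0.0556 and 0.0691).

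Sema3c, Sema3d and Sema3e all lie on chromosome 5, together with Sema3a. The 250 bases before their transcription starts are shown because these 3 genes rose together, and they differ from each other in base composition. Sequences are from RefSeq on GRCm38.p6, plus strand, 5′ to 3′, at chr5:17574566-17574815 for Sema3c, chr5:12382916-12383165 for Sema3d and chr5:14025026-14025275 for Sema3e. Capitals mark the GC box, GGGCGG or its reverse complement CCGCCC.
Sema3c: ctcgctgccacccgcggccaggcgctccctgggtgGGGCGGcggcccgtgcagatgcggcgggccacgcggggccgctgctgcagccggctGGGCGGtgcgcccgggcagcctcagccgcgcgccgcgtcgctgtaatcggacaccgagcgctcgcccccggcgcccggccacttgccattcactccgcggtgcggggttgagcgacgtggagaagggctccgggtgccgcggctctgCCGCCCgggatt
Sema3d: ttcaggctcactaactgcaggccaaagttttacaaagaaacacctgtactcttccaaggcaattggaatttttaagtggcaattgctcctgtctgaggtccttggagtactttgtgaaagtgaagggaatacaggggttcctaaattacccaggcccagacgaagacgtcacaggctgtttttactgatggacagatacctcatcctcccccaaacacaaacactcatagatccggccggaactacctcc
Sema3e: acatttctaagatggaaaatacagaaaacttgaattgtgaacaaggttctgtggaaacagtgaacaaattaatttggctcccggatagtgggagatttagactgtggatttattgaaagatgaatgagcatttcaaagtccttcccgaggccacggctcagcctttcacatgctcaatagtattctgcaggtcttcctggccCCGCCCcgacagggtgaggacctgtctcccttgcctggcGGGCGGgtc
The Sema3c window is 78.4% G and C with 39 CpG dinucleotides and 3 GC boxes, whereas the Sema3d window is 46.8% G and C with 4 CpG and no GC box. The Sema3e window has 48.0% G and C, 7 CpG and 2 GC boxes. RefSeq promoters were found for 26 of the 31 genes, 37 windows in all. A GC box on either strand stood in 27 of the 37 (73.0%), beside 32.7% of all 32851 windows of the same length, and their median G and C content was 64.0%, beside 52.4%. TATAAA on either strand stood in 0 of the 37 windows, beside 12.4% of all. TGTGGT, the core of the Runx motif, stood in 13.5% of them, beside 14.0% of all, and CTTTGAT, a core of the Tcf and Lef motif, in 2.7%, beside 3.21%. The E-box CACGTG stood in 5.41% of them, beside 6.02%. None of these 4 motifs was found in the 3 windows printed, so no motif overlaps a GC box there.

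The other class 3 genes did not pass the test. Sema3a, the repellent of sensory axons that protects bone in mice, had -3.16 in maxilla and -3.55 in mandible, against -4.28 in ilium and -3.9 in femur. The jaw bones were above the others by a gap of 0.35, and the difference was 0.73 ± 0.27 (adjusted p = 0.16). Sema3b and Sema3f, both known as tumour suppressors in the human lung, had differences of 1.5 ± 0.45 and 1.48 ± 0.39 with adjusted p of 0.113 and 0.0895. Sema3b had 1.07 in maxilla and 1.78 in mandible, against 0.36 in ilium and -0.51 in femur. Sema3f had -1.5 in maxilla and -2.42 in mandible, against -3.38 in ilium and -3.5 in femur, so both genes had separated classes, with the mandible as the higher jaw bone for Sema3b and the maxilla for Sema3f. The second probes of Sema3a and Sema3f gave 1.11 ± 0.25 and 1.58 ± 0.40. Sema3g, a semaphorin of endothelial cells, had a difference of -0.16 ± 0.45, and its jaw bones lay on both sides of the others.

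Among the 6 membrane-bound class 4 semaphorins, none passed as higher and 1 as lower, beside 4.51% and 7.25% of all genes tested. Their median difference was -0.37. Sema4a, a semaphorin of dendritic cells and lymphocytes that acts in T cell priming, had a relative log2 signal of 0.62 in maxilla and 0.78 in mandible, against 2.74 in ilium and 2.94 in femur. The 2 bones of each class were close to each other and the classes did not overlap. The difference was -2.14 ± 0.21 (4.4-fold lower, adjusted p = 0.0325). Of all genes tested, 4.43% had a lower difference. The 5 B cell markers summed to 14.0 and 11 times the 75th percentile signal in maxilla and mandible, against 38.8 and 52.1 in ilium and femur. The 5 macrophage markers summed to 9.64 and 11.7 in maxilla and mandible, against 18.7 and 17.3. For all 5 macrophage markers both jaw bones lay below both of the others, beside 36.3% of all genes tested, and none was called. Their part in the Sema4a result was not tested.

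Sema4g had the opposite direction without passing the test. Its relative log2 signal was -4.41 in maxilla and -3.15 in mandible, against -5.56 in ilium and -6.24 in femur. Both jaw bones were higher. In the femur it was not well above background, so 1 of the 2 trunk and limb bones measured it, and the difference of 2.12 ± 0.55 had an adjusted p of 0.0895. Sema4c, a ligand of Plxnb2, had -0.55 in maxilla and 0.08 in mandible, against -1.42 in ilium and -1.81 in femur. Both jaw bones lay above both of the others, with a difference of 1.39 ± 0.33 (adjusted p = 0.0764), and its other probe gave 0.95 ± 0.22. Sema4b and Sema4f had differences of -0.73 ± 0.32 and -0.68 ± 0.24 (adjusted p = 0.212 and 0.143), with both jaw bones below. Sema4b had -4.21 in maxilla and -4.14 in mandible, against -3.81 in ilium and -3.09 in femur, and Sema4f had -3.26 and -3.44 against -2.84 and -2.49 in the same bones. Sema4d, an osteoclast product that inhibits osteoblasts through Plxnb1 in mice, had -0.35 in maxilla and -1.71 in mandible, against -1.06 in ilium and -0.87 in femur. The jaw bones lay on either side of the others, with a difference of -0.06 ± 0.54, while its other probe was lower in both jaw bones (-0.93 ± 0.23, adjusted p = 0.0785).

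No class 5, 6 or 7 semaphorin passed limma's test in either direction, and Sema5a and Sema6a had an unadjusted p of 0.0303 and 0.0389. Sema5a, which carries thrombospondin repeats and binds Plxnb3, had 1.14 in maxilla and 2.53 in mandible, against 0.15 in ilium and -0.66 in femur. The mandible was the highest and the femur the lowest bone, the classes were separated by 0.99, and the difference was 2.09 ± 0.62 (adjusted p = 0.109). Its other probe gave 1.51 ± 0.65. Sema5b, a repellent of retinal neurites in mice, had -1.72 in maxilla and -2.53 in mandible, against -2.27 in ilium and -1.9 in femur, with overlapping groups and a difference of -0.04 ± 0.38. The 4 class 6 genes had differences between -0.62 and 0.75, with Sema6a and Sema6c above in both jaw bones, Sema6b below, and Sema6d, a ligand of Plxna1, overlapping. Sema6a, a ligand of Plxna2 and Plxna4, had -3.91 in maxilla and -3.55 in mandible, against -4.38 in ilium and -4.59 in femur (0.75 ± 0.24, adjusted p = 0.125), while its other tested probe gave -0.41 ± 0.32. Sema6b had -2.58 in maxilla and -2.08 in mandible, against -1.69 in ilium and -1.71 in femur (-0.62 ± 0.26, adjusted p = 0.193). The classes of Sema6c were 0.06 apart (0.39 ± 0.26). Sema7a, the membrane-anchored ligand of integrins and of Plxnc1, had 1.48 in maxilla and 1.89 in mandible, against 1.52 in ilium and 0.57 in femur. The femur was the low bone, the groups overlapped, and the difference was 0.64 ± 0.42.

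**Figure D2:**
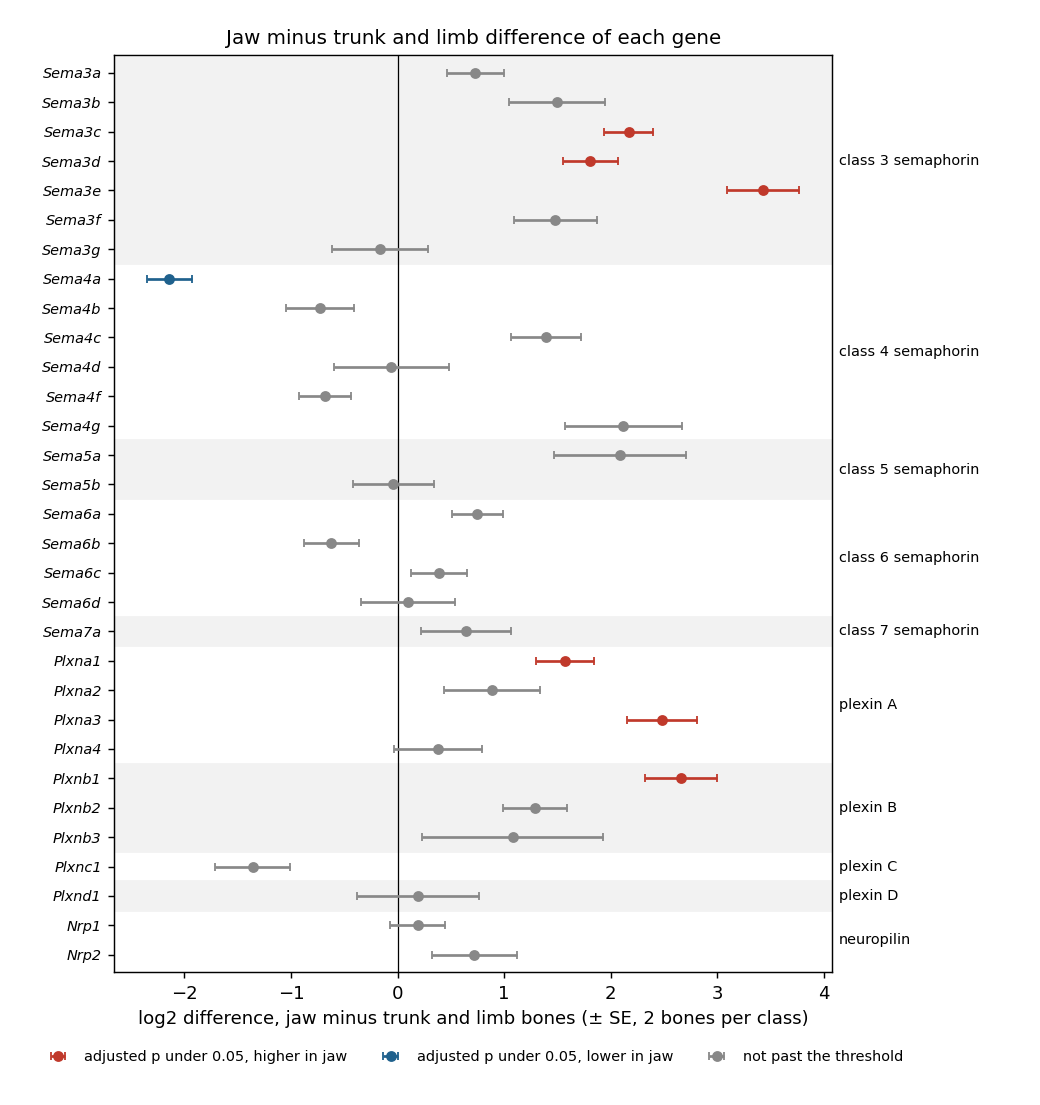
Difference in relative log2 signal, jaw minus trunk and limb bones (x axis), of each of the 31 genes (rows), with SE bars from limma over 2 bones per class. The 6 genes called higher lie between 1.57 and 3.43, Sema4a lies at -2.14, and the class 3 semaphorins and the plexins of the A and B types lie mostly right of 0.

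Among the receptors, all 7 plexins of the A and B types had positive differences, beside 48.7% of all genes tested. Of these 7, 3 passed as higher, beside 4.51% of all genes tested. The groups of Plxna4 and Plxnb3 overlapped, and their differences turned to -0.11 without the mandible and -0.04 without the maxilla. Plxnb1, the Sema4d receptor of osteoblasts in mice, had a relative log2 signal of 0.03 in maxilla and 0.15 in mandible, against -2.18 in ilium and -2.97 in femur. The jaw bones were nearly equal and lay at least 2.21 above the others, a difference of 2.66 ± 0.34 (6.33-fold, adjusted p = 0.0345). Its second probe gave 2.61 ± 0.41 and was also called. Plxna3, which with Nrp2 receives Sema3f, had -0.73 in maxilla and -1.19 in mandible, against -3.14 in ilium and -3.74 in femur. The groups were 1.95 apart, and the difference was 2.48 ± 0.33 (5.58-fold, adjusted p = 0.0362). Its other probe was well above background in the 2 jaw bones alone, and passed the filter only through them. It had -4.66 in maxilla and -5.18 in mandible, against -7.03 in ilium and -6.57 in femur. Its difference of 1.88 ± 0.31 was thus taken against signals not well above background and adds no separate support. Without the filter on background the Plxna3 call was lost (adjusted p = 0.0515).

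Plxna1, a receptor of class 3 semaphorins with a neuropilin and of Sema6d, and needed for osteoclast formation in mice, had 0.33 in maxilla and 0.76 in mandible, against -0.88 in ilium and -1.18 in femur. This gave 1.57 ± 0.27 (2.97-fold, adjusted p = 0.0474), the highest adjusted p of the 6 calls. Its other probe did not share the pattern. That probe had -1.06 in maxilla and -2.05 in mandible, against -1.44 in ilium and -0.91 in femur, with a difference of -0.37 ± 0.45, so the Plxna1 call rests on 1 of 2 probes and was lost when probes were averaged (0.6, adjusted p = 0.155). It was also lost with quantile scaling, median centring, the series table and no filter on background (adjusted p between 0.0517 and 0.094). Plxna2 and Plxna4, receptors of class 6 semaphorins, had differences of 0.89 ± 0.45 and 0.38 ± 0.41 and did not pass. Plxna2 had 0.23 in maxilla and 1.22 in mandible, against 0.09 in ilium and -0.43 in femur, and Plxna4 had -0.83 and 0.15 against -0.75 and -0.69 in the same bones. For both the mandible was the high bone.

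Plxnb2, the Sema4c receptor, was not called on the probe used for the gene. That probe had 2.56 in maxilla and 1.99 in mandible, against 1.13 in ilium and 0.84 in femur, a difference of 1.29 ± 0.30 that did not pass (adjusted p = 0.0737). Its other probe had -1.96 in maxilla and -0.18 in mandible, against -5.02 in ilium and -4.99 in femur. That difference was 3.94 ± 0.66 and passed in the fit of each probe (adjusted p = 0.0438). With the mean over probes Plxnb2 was called higher (2.61, adjusted p = 0.0332). Both probes thus had both jaw bones above both of the others, by different amounts.

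The remaining receptors did not pass. Plxnc1, the Sema7a receptor of myeloid cells, had -1.17 in maxilla and -0.44 in mandible, against 0.38 in ilium and 0.74 in femur. Its jaw bones were both lower, with a difference of -1.36 ± 0.35 (adjusted p = 0.0871), and its second probe gave -1.52 ± 0.40. Plxnd1, the endothelial receptor of Sema3e, had -0.21 in maxilla and 1.21 in mandible, against 0.53 in ilium and 0.1 in femur. The jaw bones lay on both sides of the others, and the difference was 0.19 ± 0.57 (adjusted p = 0.838), beside 3.43 for its ligand. Endothelial markers such as Cdh5 and Pecam1 summed to 11 and 18.0 in maxilla and mandible, against 15.1 and 11.9 in ilium and femur.

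The neuropilins bind class 3 semaphorins and VEGF. Nrp1 had -1.6 in maxilla and -1.13 in mandible, against -1.48 in ilium and -1.63 in femur, so the groups overlapped and the difference was 0.19 ± 0.26 (adjusted p = 0.649). Its other 2 probes gave -0.17 ± 0.30 and -0.13 ± 0.38. Nrp2 had 3.86 in maxilla and 3.78 in mandible, against 3.59 in ilium and 2.61 in femur. The femur was the low bone, and the difference was 0.72 ± 0.40 (adjusted p = 0.291).

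Where a gene had several probes, they mostly pointed one way. Of 51 tested probes of these genes, 10 were called higher and 1 lower in the fit of each probe, where 4.92% of all 31116 probes tested were called higher and 7.89% lower. Both tested probes of Sema3e, Plxna3 and Plxnb1 are among the 10, so these genes count more than once. The second Plxna3 probe was well above background in the jaw bones alone. Of 18 genes with at least 2 tested probes, 14 had all probes on the same side of 0, and Nrp1, Plxna1, Plxna4 and Sema6a had probes on both sides. The same share over all genes with several probes was not counted. Sema3d and Sema4a have 1 probe each, so no second probe bears on them.

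**Figure D3:**
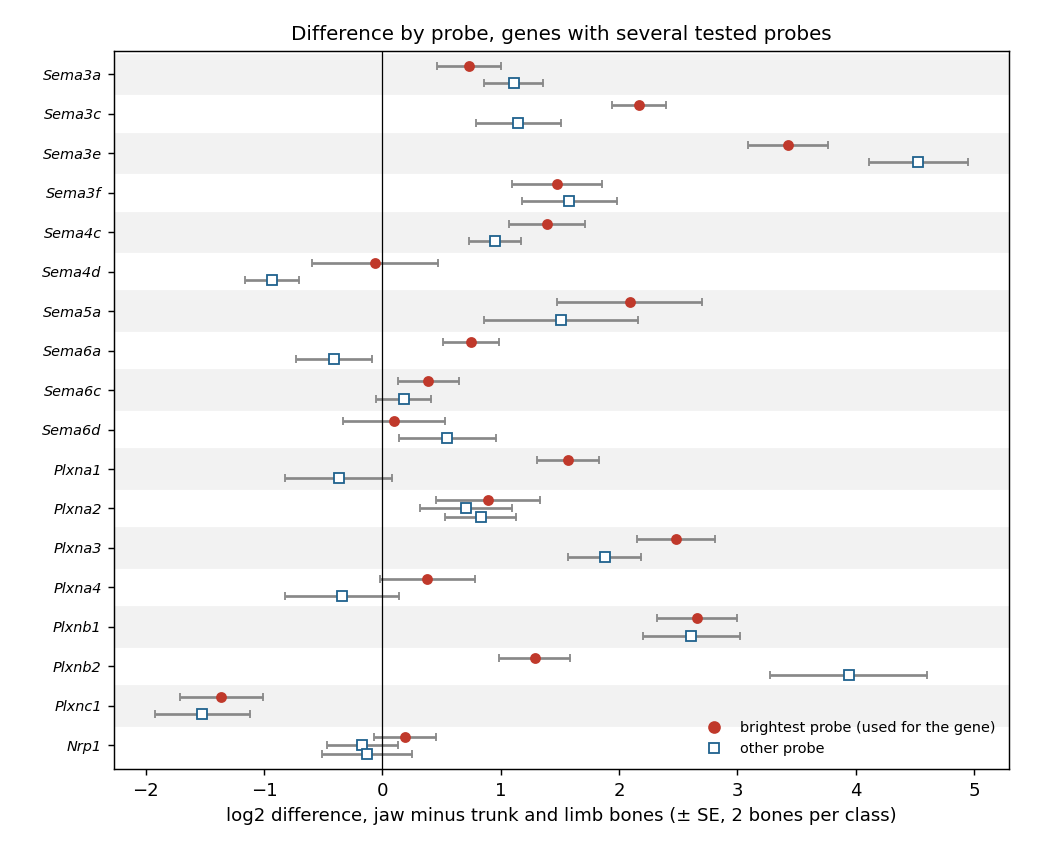
Difference in relative log2 signal, jaw minus trunk and limb bones (x axis, with SE over 2 bones per class), of every tested probe of the 18 genes with at least 2 tested probes (rows). Both probes of Sema3e, Plxna3 and Plxnb1 lie right of 0, the probes of Plxna1 lie at 1.57 and -0.37, and those of Plxnb2 at 1.29 and 3.94. Of the Plxna3 probes, the one at 1.88 was well above background in the jaw bones alone.

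Within the jaw, maxilla and mandible differed by at least 2-fold for 7 genes on the probe used for the gene. There was 1 array per bone and so no test. Other probes of Plxnb2 and Plxna4 had gaps (maxilla minus mandible) of -1.77 and -1.21, beside 0.57 and -0.99 on the probe used. Plxnb3, a plexin of glia that binds Sema5a, had -0.93 in maxilla and -3.18 in mandible, 4.74-fold higher in maxilla, while ilium and femur stood at -3.34 and -2.92. The maxilla alone was high. Sema4d was 2.57-fold higher in maxilla on the probe used for the gene and had a gap of -0.38 on the other, so its probes differ in sign. These were 2 of 31 genes (6.45%), beside 13.5% of all genes tested.

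Another 5 genes (16.1%, beside 8.32% of all genes tested) were lower in maxilla than in mandible by at least 2-fold. Plxnd1 had the largest gap (-1.42, 2.67-fold), followed by Sema5a (-1.39, with -1.58 on its other probe) and Sema4g (-1.25). Sema3g had -0.8 in maxilla and 0.31 in mandible, and ilium and femur lay between them at -0.14 and -0.02. Sema6d had 0.2 in maxilla and 1.28 in mandible, against 0.7 in ilium and 0.58 in femur, a gap of -1.08 that its other tested probe repeated at -0.96. Skeletal muscle markers summed to 72.3 in maxilla and 437 in mandible, and olfactory neuron markers to 13.5 and 0.482. Their part in these gaps was not tested.

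On the probe used for the gene, no semaphorin or plexin gene differed 2-fold between ilium and femur. Of all genes tested, 2.27% were higher and 1.57% lower in ilium. The largest gaps on these probes were those of Nrp2 (0.98) and Sema7a (0.94), both higher in ilium. The second Plxnb1 probe had a gap of 1.0, with -2.12 in ilium and -3.12 in femur. The median absolute gap of the 31 genes was 0.57 between maxilla and mandible, beside 0.45 over all genes tested, and 0.35 between ilium and femur, beside 0.19.

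**Figure D4:**
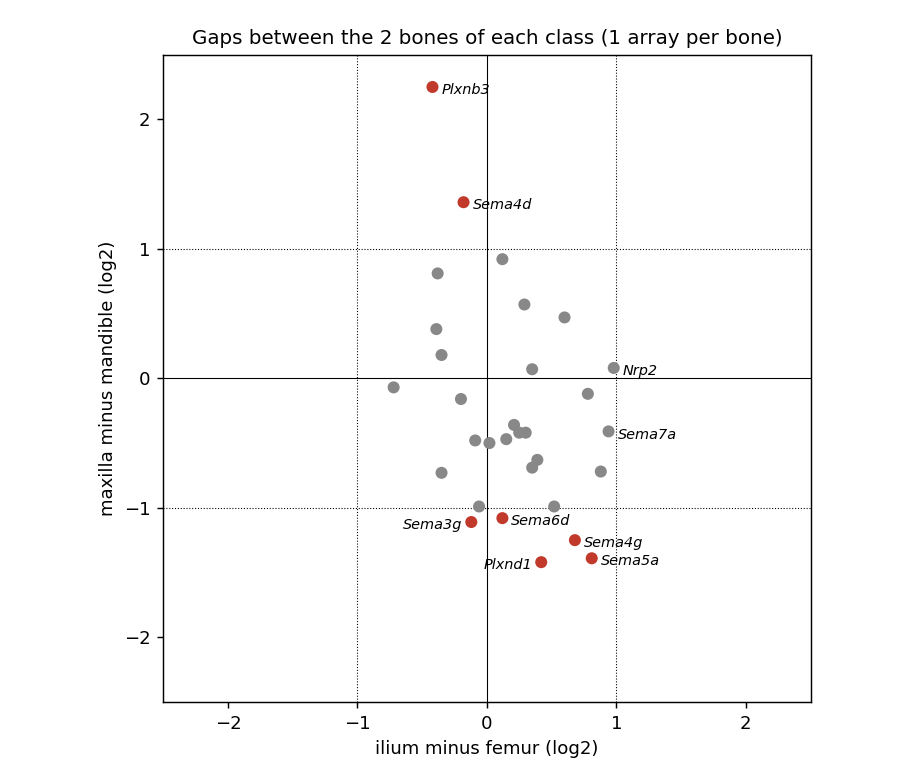
Gap in relative log2 signal between maxilla and mandible (y axis) against the gap between ilium and femur (x axis), 1 point per gene and 1 array per bone. Dotted lines mark 2-fold. The 7 genes in red lie beyond 2-fold between maxilla and mandible, and 0 genes lie beyond it between ilium and femur.

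Genes around the semaphorins were called in both directions. Of 12 tested co-receptors and alternative receptors, 2 were called higher and 2 lower, and the median difference was -0.08. Over all genes tested, 4.51% were called higher and 7.25% lower. Erbb2, a kinase that joins Plxnb1 in receptor complexes, had 0.47 in maxilla and -0.07 in mandible, against -1.67 in ilium and -2.04 in femur (2.05 ± 0.30, adjusted p = 0.0399), and Ptk7, a pseudokinase that joins plexin complexes in frogs, had a difference of 2.27 ± 0.32 (adjusted p = 0.0369). Both were higher in both jaw bones. Tyrobp, the myeloid adaptor that signals with Plxna1 and Trem2, had 3.45 and 3.44 in maxilla and mandible, against 5.09 and 5.44 in ilium and femur (-1.81 ± 0.23, adjusted p = 0.0343). Cd72, a B cell receptor of Sema4d, also fell (-1.65 ± 0.22, adjusted p = 0.0362). None of the 8 VEGF ligands and receptors that share neuropilins was called by limma (lowest adjusted p = 0.256), and their median was 0.07. The largest difference among them was that of Vegfd, a growth factor of lymph vessels (1.13 ± 0.62, adjusted p = 0.286).

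Of 28 intracellular effectors, 4 were called higher and 1 lower, beside 4.51% and 7.25% of all genes tested, with a median difference of 0.27. Crmp1 and Dpysl2 are collapsin response mediators, which carry the class 3 signal to microtubules. Crmp1 had -1.02 in maxilla and -2.61 in mandible, against -5.84 in ilium and -6.25 in femur, where it was not well above background (4.23 ± 0.63, adjusted p = 0.0398). Dpysl2 had a difference of 1.51 ± 0.20 (adjusted p = 0.0356). Rnd2, of a small GTPase family that binds plexins, had 2.97 ± 0.50 (adjusted p = 0.0472), and Farp1, an exchange factor of the FERM type that binds A type plexins, had 2.11 ± 0.34 (adjusted p = 0.0437). Fes, a kinase downstream of Sema3a and abundant in myeloid cells, fell by 1.92 on the log2 scale (SE 0.25, adjusted p = 0.0354). The neuron markers summed to 6.26 and 4.9 in maxilla and mandible, against 0.43 and 0.433 in ilium and femur. Of the 6 tested, 3 were called higher (Tubb3, Nefl and Gap43), beside 4.51% of all genes tested. Nefl and Gap43 were not well above background in ilium and femur, so they passed the filter only through the jaw bones. The part of the neuron markers in these differences was not tested.

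Most genes of other axon guidance families had positive differences, but few passed the test. Of 17 tested ligands and receptors of the Slit, netrin and ephrin families, 3 were called higher and none lower, beside 4.51% and 7.25% of all genes tested. Positive differences were found for 16 of the 17, beside 48.7% of all genes tested, and the median was 1.43. Robo1, a Slit receptor, had 0.69 in maxilla and 1.46 in mandible, against -1.17 in ilium and -1.67 in femur (2.5 ± 0.38, adjusted p = 0.0413). The ephrins Efnb2 and Efna5 had differences of 2.37 ± 0.30 and 2.01 ± 0.20 (adjusted p = 0.0343 and 0.0325). Timd2, a Sema4a receptor, and Dcc, a netrin receptor, were each well above background on 1 array and were not tested.

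**Figure D5:**
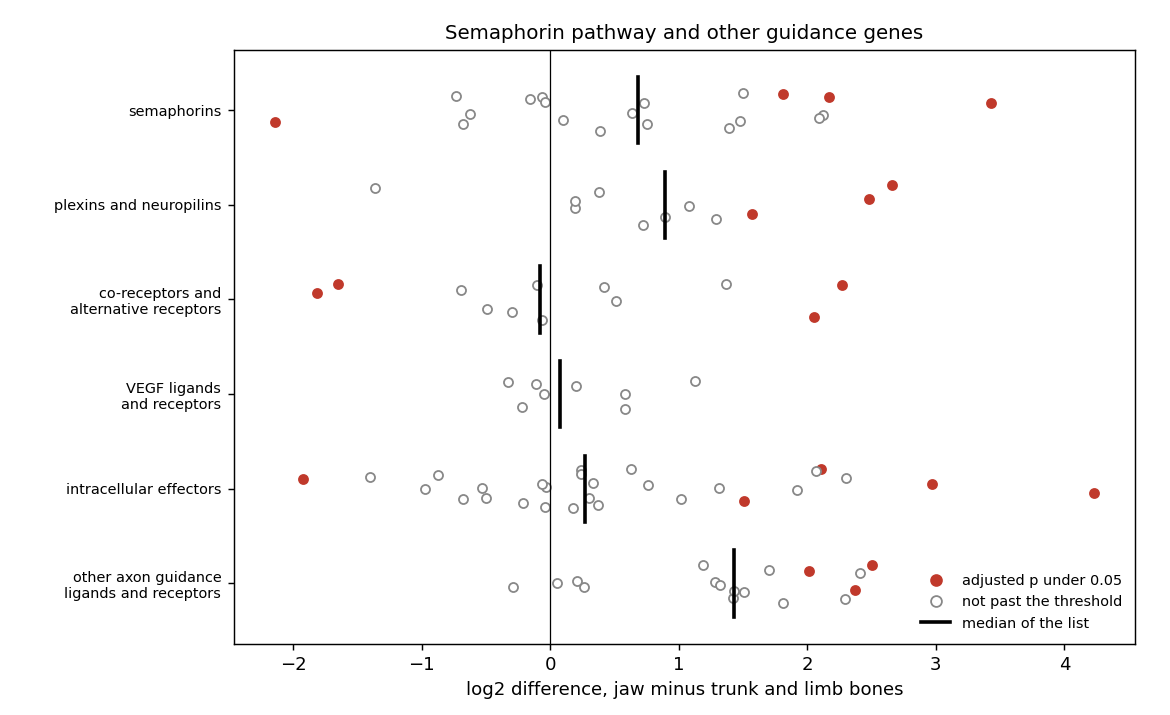
Difference in relative log2 signal, jaw minus trunk and limb bones (x axis), of single genes (points) in 6 gene lists (rows), with filled points for an adjusted p under 0.05 and a bar at the list's median. The medians are 0.68 for the 20 semaphorins, -0.08 for co-receptors, 0.07 for VEGF genes, 0.27 for effectors and 1.43 for other axon guidance genes.

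The called genes kept the sign of their difference whichever bone was left out. Sema3c ran over 2.0 to 2.35, Sema3d over 1.57 to 2.05 and Sema3e over 3.08 to 3.77. Plxna1 ran over 1.36 to 1.78, Plxna3 over 2.18 to 2.78, Plxnb1 over 2.27 to 3.05 and Sema4a over -2.24 to -2.04. Calls from these fits are not compared, because a class then has 1 array. With the maxilla left out the median difference of the 31 genes was 0.87, beside -0.06 over all genes tested. With the mandible left out it was 0.62, beside -0.03. Sema3c, Sema3e, Plxnb1 and Sema4a kept their call under all 9 alternatives that used all 4 bones. Without the filter on background they did so narrowly (limma adjusted p between 0.0488 and 0.0499). Some of these alternatives left the values of these genes unchanged, such as leaving out probes with outlier spots and fitting each probe.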

How the data were processed

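Whole-bone RNA was hybridised to 4 one-colour arrays. The deposited scanner files hold spot intensity, background-subtracted and detrended by Agilent Feature Extraction 9.5.3.1, per the file headers and the submitters' processing notes. The deposited series table holds log2 values that the authors made with GeneSpring, per the series description, and was used as an alternative. Probe positions are those of build mm8, per the file headers. The processed signal of each array was divided by its own 75th percentile and put on the log2 scale. Outlier spots were left out, spots of a probe averaged, and a gene was its probe with the highest mean. Genes well above background on at least 2 arrays were tested with limma 3.58.1 in R 4.3.3 (Benjamini-Hochberg, threshold 0.05; 2 residual and 1.757 prior degrees of freedom). The fit was also run on simulated data, and that outcome is not given here. On the 4 arrays the lowest limma adjusted p was 0.0325, and 7082 genes had an unadjusted p under 0.05. Of the 59 probes, 42 were named as their accession in the RefSeq gene table and 17 had no match there. The genes, the pathway lists and the marker lists were chosen with earlier results of these data known. Genes were named in full where called, separated 2-fold between classes or between 2 bones of a class, and pathway genes where called. Alternatives changed the background correction, scaling, filter, probe summary and bones used. The result of 1 marker list is not reported here.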

Additional observations from a re-analysis of the deposited data

How the results depend on the processing

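The counts of semaphorin and plexin genes called, 6 higher and 1 lower, ran over 0 to 11 and 0 to 3 when 1 bone was left out. The counts of the 2-fold rule ran over 7 to 13 higher and 1 to 3 lower, and the 12 pathway calls over 0 to 27. Without the filter on background 3 of these genes were called higher, where 396 of 27598 genes tested were. Plxna1, Plxna3 and Sema3d were lost (limma adjusted p = 0.0681, 0.0515 and 0.0556). Plxna1 and Sema3d also missed the threshold with quantile scaling (0.0517 and 0.0639), median centring (0.0896 and 0.0657) and the series table (0.094 and 0.0691). The 12 pathway calls became 7 with median centring, 6 with the series table and 2 without the filter. Over all genes tested the calls became 2251, 2113 and 1120 in these settings, beside 2423 in the main fit. Median centring put 1 gene 2-fold higher in ilium than femur, the series table put 8 genes lower in maxilla than mandible, and the mean over probes left 1 gene higher in maxilla. Some differences that were not called changed sign. With median centring and with the series table Nrp1 was at -0.07 in both, Plxnd1 at -0.06 and -0.07, and Sema6d at -0.15 and -0.16. With the mean over probes Nrp1 was at -0.04 and Sema5b at 0.81. Leaving out 1 bone gave -0.05 to 0.42 for Nrp1, -0.11 to 0.87 for Plxna4, -0.04 to 2.2 for Plxnb3, -0.52 to 0.9 for Plxnd1, -0.71 to 0.39 for Sema3g, -0.75 to 0.62 for Sema4d, -0.45 to 0.37 for Sema5b and -0.44 to 0.64 for Sema6d. The cause was not tested. Leaving out a bone leaves 1 array in a class, which is then assumed to vary like the other class. No paired analysis was possible because the labels give the bones no replicate numbers and tie no bone to an animal. With 4 arrays, the number of arrays limits the precision, and Sema4g in the femur was not well above background.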

Other observations

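The remaining marker lists are given as sums over their genes, in units of the 75th percentile signal of the array. Megakaryocyte markers summed to 21.8 and 30.0 in maxilla and mandible, against 123 and 150 in ilium and femur. Of these, 5 of 5 were called lower, beside 7.25% of all genes tested. Neutrophil markers summed to 196 and 101 in maxilla and mandible, against 387 and 377 in ilium and femur. Here 3 of 5 were called lower, beside the same 7.25%. The neutrophil gene Ltf was not called. Its relative log2 signal was 7.3 in maxilla and 5.26 in mandible, against 7.13 in ilium and 7.16 in femur. T cell markers summed to 1.32 and 0.763 in maxilla and mandible, against 2.86 and 3.44 in ilium and femur. Osteoclast markers had sums of 29.8 in maxilla and 36.7 in mandible, which lay between the 75.1 of the ilium and the 19.6 of the femur, and cartilage markers had sums of 8.77 and 11.2 in the jaw bones, also between the 25.0 of the ilium and the 2.98 of the femur. Of the cartilage genes, Sox9 was called higher in jaw (3.88 ± 0.54, adjusted p = 0.0368), and the other 3 tested had negative differences and were not called. Osteoblast and osteocyte markers summed to 397 and 411 in maxilla and mandible, against 314 and 265 in ilium and femur.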
